A study of Mus musculus with 6 samples.

Results

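The transcripts described here encode the initiation factors (eIF) and elongation factors (eEF) of cytosolic translation, together with the enzymes that methylate eEF1A and eEF2. They were taken by gene symbol from the deposited gene table: names beginning with Eif1 to Eif6, Eef1 or Eef2, leaving out pseudogenes, the Eif2ak kinases, the Eif4ebp genes and Eef2k. This gave 61 of 54752 genes. By symbol they fell into 7 elongation factor genes, 5 of eIF1, 11 of eIF2 and its partners, 14 of eIF3, 13 of eIF4, 4 of eIF5, 1 of eIF6, 5 eEF methyltransferase genes and Eif2c5, which is an Argonaute name rather than that of a translation factor.

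RNA was measured in the anti-FLAG immunoprecipitate (IP) and in the input of 2 tet-LIN28B animals and 1 littermate control, which makes 6 libraries. The tet-LIN28B mice carried 1 copy of a doxycycline (Dox) inducible, FLAG-tagged human LIN28B cDNA at Col1a (tetO) and Rosa26 rtTA-m2, the transactivator that switches it on and that is not restricted to B cells. The control was heterozygous for Rosa26 rtTA-m2 without FLAG-LIN28B. Bone marrow of adult, previously untreated mice of both genotypes was cultured over 5 days in medium holding 20 ng/mL of IL-7 together with Dox, which the labels give as 0.1 mg/mL and the study's text as 0.1 µg/mL, so the control was exposed to Dox as well. IL-7 favours B cell progenitors, and the cells were not sorted before lysis. Each input was part of the lysate that went into the IP of the same mouse. Titles and descriptions of the samples disagree on which library is IP and which is input, and the titles are used here because the column names of the table go with them. In 1 place the study speaks of technical replicates for the tet-LIN28B samples, whereas the titles number them as biological ones. They are treated here as 2 mice.

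Translation starts when eIF2 brings the initiator tRNA to the small ribosomal subunit, which is held by the eIF3 scaffold, while the eIF4 proteins bind the cap of the mRNA and unwind its leader. eIF5 and eIF5B then complete start codon selection and the joining of the large subunit. During elongation eEF1A delivers aminoacyl-tRNA, the eEF1B subunits reload eEF1A with GTP, and eEF2 moves the ribosome along. Many elongation factor mRNAs and several eIF mRNAs begin with a pyrimidine tract (TOP motif) through which their translation follows nutrient and growth signals. LIN28B is an RNA-binding protein of fetal cells with a cold shock domain and a pair of zinc knuckles. The zinc knuckles bind GGAG in precursors of let-7, and the protein is also found on many mRNAs.

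Short coding stretches of the 6 initiation and elongation factor transcripts whose IP/input ratio differed between the genotypes are shown to let the letters of the zinc knuckle motif be compared between those that were higher and those that were lower in the IP. Each is the 30-base stretch within a single coding exon that holds the most GGAG, written 5′ to 3′ along the mRNA with GGAG in capitals (GENCODE M21 transcripts, identical to the GRCm38 genome sequence at these positions). The first 3 transcripts were higher and the last 3 lower than in the control.
Eef1b2: caccacaggaagtGGAGctgcagatgctaa
Eef1d: taaGGAGgctgcccgactacgGGAGGAGag
Eif1b: tggcatcgtcaaGGAGGAGcagctgaaggt
Eif5a: cctgaaGGAGaccttggcaaGGAGattgag
Eif2b2: cGGAGagtcctcaagatcatccgGGAGGAG
Eif3g: ccgaccaggtGGAGGAGGAGGGAGaggacg
The Eef1b2 stretch lies in exon 3 of 6 on the plus strand, at chr1:63178493-63178522, and that of Eef1d in exon 7 of 9 on the minus strand, at chr15:75896322-75896351. That of Eif1b is in exon 4 of 4, plus strand, at chr9:120494915-120494944. The Eif5a stretch lies in exon 5 of 7 on the minus strand, at chr11:69917627-69917656. Those of Eif2b2 (exon 2 of 8, plus strand, chr12:85219905-85219934) and Eif3g (exon 2 of 11, minus strand, chr9:20898378-20898407) complete the set. Exon numbers are those of the annotated transcript with the longest coding sequence, and which transcripts the cells held was not tested. The stretches of the lower transcripts held 2, 3 and 4 copies and those of the higher ones 1, 3 and 2 copies. Searched on the mRNA strand and counting overlapping matches, GGAG was present in 54 of 54 tested members and in 99.7% of 5652 tested protein-coding genes, so that its presence alone separated nothing.

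Values are FPKM, fragments scaled to transcript length and to the mapped fragments of the library, as the authors computed them, and without counts the depth per library is unknown. The genes tested were those with a mean of at least 10 FPKM over the 3 inputs, 6347 genes in all. This left 54 of the 61 members: 6 elongation factor genes, 5 of eIF1, 9 of eIF2, 14 of eIF3, 12 of eIF4, 3 of eIF5, 1 of eIF6 and 4 methyltransferase genes. Of the other 7, Eef1a2, Eif2s3y, Eif4e1b and Eif2c5 were listed at 0 in all 6 libraries. Eef1a2 is the muscle and neuron form of eEF1A and Eif2s3y the Y-linked form of eIF2 gamma. Eif2b3 had 8.22 and 9.40 FPKM in the tet-LIN28B inputs against 8.60 FPKM in the control input, just under the limit. Eif5a2 stayed at or below 0.52 FPKM and Eef1akmt3 at or below 0.19 FPKM in the inputs. In the inputs, 10 of 11 markers of B cell progenitors were at 10 FPKM or more in all 3 libraries, and so were 7 of 23 markers of other cells. Of the 7 myeloid markers 3 were (Lyz2, S100a8 and S100a9), while Csf1r, Itgam, Elane and Mpo were not. The rest were Trbc2, Pf4, Mcpt8 and Prss34. Pf4 had 771 and 416 FPKM in the tet-LIN28B inputs against 428 FPKM in the control input, and Trbc2 65.2 and 22.0 against 21.9 FPKM. Markers of other cells summed to 8435 and 5204 FPKM in the tet-LIN28B inputs against 6942 FPKM in the control input. Among stromal and endothelial markers, Col1a1 and Cxcl12 were at or near 0 in all 3, and Pecam1 was at 9.91 to 12.0 FPKM. Their part in the results below was not tested. In such bulk samples fewer cells of a type and less RNA per cell cannot be told apart.

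The translation factor transcripts together made up 1.77% and 1.80% of all FPKM in the tet-LIN28B IPs and 1.63% in the control IP, against 1.09%, 1.14% and 1.15% in the inputs of the same mice. All 3 IPs thus lay above all 3 inputs, the control IP included. Eef1a1, Eif1, Eef1b2 and Eif5a accounted for 68.8% and 62.0% of the members' FPKM in the tet-LIN28B IPs and 62.3% in the control IP, against 59.1% to 59.97% in the inputs. Among these, Eef1a1 had 3694 and 4254 FPKM in the tet-LIN28B IPs and 4210 FPKM in the control IP, which lay between them. The share of Eef1a1 in the members' FPKM was 16.5% and 19.2% in the tet-LIN28B IPs and 22.5% in the control IP.

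No member passed the test between the genotypes before the IP. In the inputs 0 of the 54 members differed between tet-LIN28B and control (limma, lowest adjusted p = 0.74, and 0 at an unadjusted p under 0.05), where 0.284% of all genes tested did (18 of 6347, and 411 at an unadjusted p under 0.05). The members' log2 differences in input, tet-LIN28B minus control, ran from -0.61 to 0.29 with a median of -0.09, and the standard errors of these differences from 0.12 to 0.45.

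Enrichment was measured as the IP/input ratio within a mouse, and tests used log2((IP + 1)/(input + 1)), which understates the change of low genes. In the tet-LIN28B mice 18 of 54 members were higher in the IP than in the input (33.3%), 18 were lower (33.3%) and 18 passed in neither direction (limma, adjusted p under 0.05). Over all genes tested, 20.2% were higher and 41.9% lower. The even split of the members depended on the scale and the filter. With each library rescaled to TPM, 20 were higher and 14 lower (1409 and 2392 of all 6347 genes). With each mouse's ratios centred on the median of all genes, 26 were higher and 13 lower (2042 and 2134). With 50 FPKM asked of all 4 tet-LIN28B libraries, 15 of 27 members were higher and 6 lower (522 and 512 of 1460 genes). The mean ratio of both mice was above 2 for 10 members (18.5%, against 9.97% of all genes) and below 0.5 for 12 members (22.2%, against 31.1%). The members' log2 ratios in the tet-LIN28B mice had a median of 0.08, against -0.35 over all genes. Between both mice they had a median standard deviation of 0.18 and correlated at r = 0.964 across the 54 genes, which are not independent replicates and share libraries. The sign differed between the mice for 2 members. With the log2 ratios of the control, those of the 2 tet-LIN28B mice correlated at r = 0.539 and 0.583 across the same genes.

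The control IP gives what anti-FLAG beads carry without the tagged protein. There the ratio was above 1.5 for 7 members (13.0%, against 12.4% of all genes): Eif4b, Eif4h, Eef1g, Eif2s3x, Eif4g1, Eef2 and Eif2b4. With 1 control mouse these ratios have no replicate check. Both tet-LIN28B mice lay above the control for 23 members (42.6%, against 28% of all genes), both below it for 24 members (44.4%, against 59.8%), and the control lay between them for 7, among which were Eef1a1, Eef1g and Eef2.

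**Figure D1:**
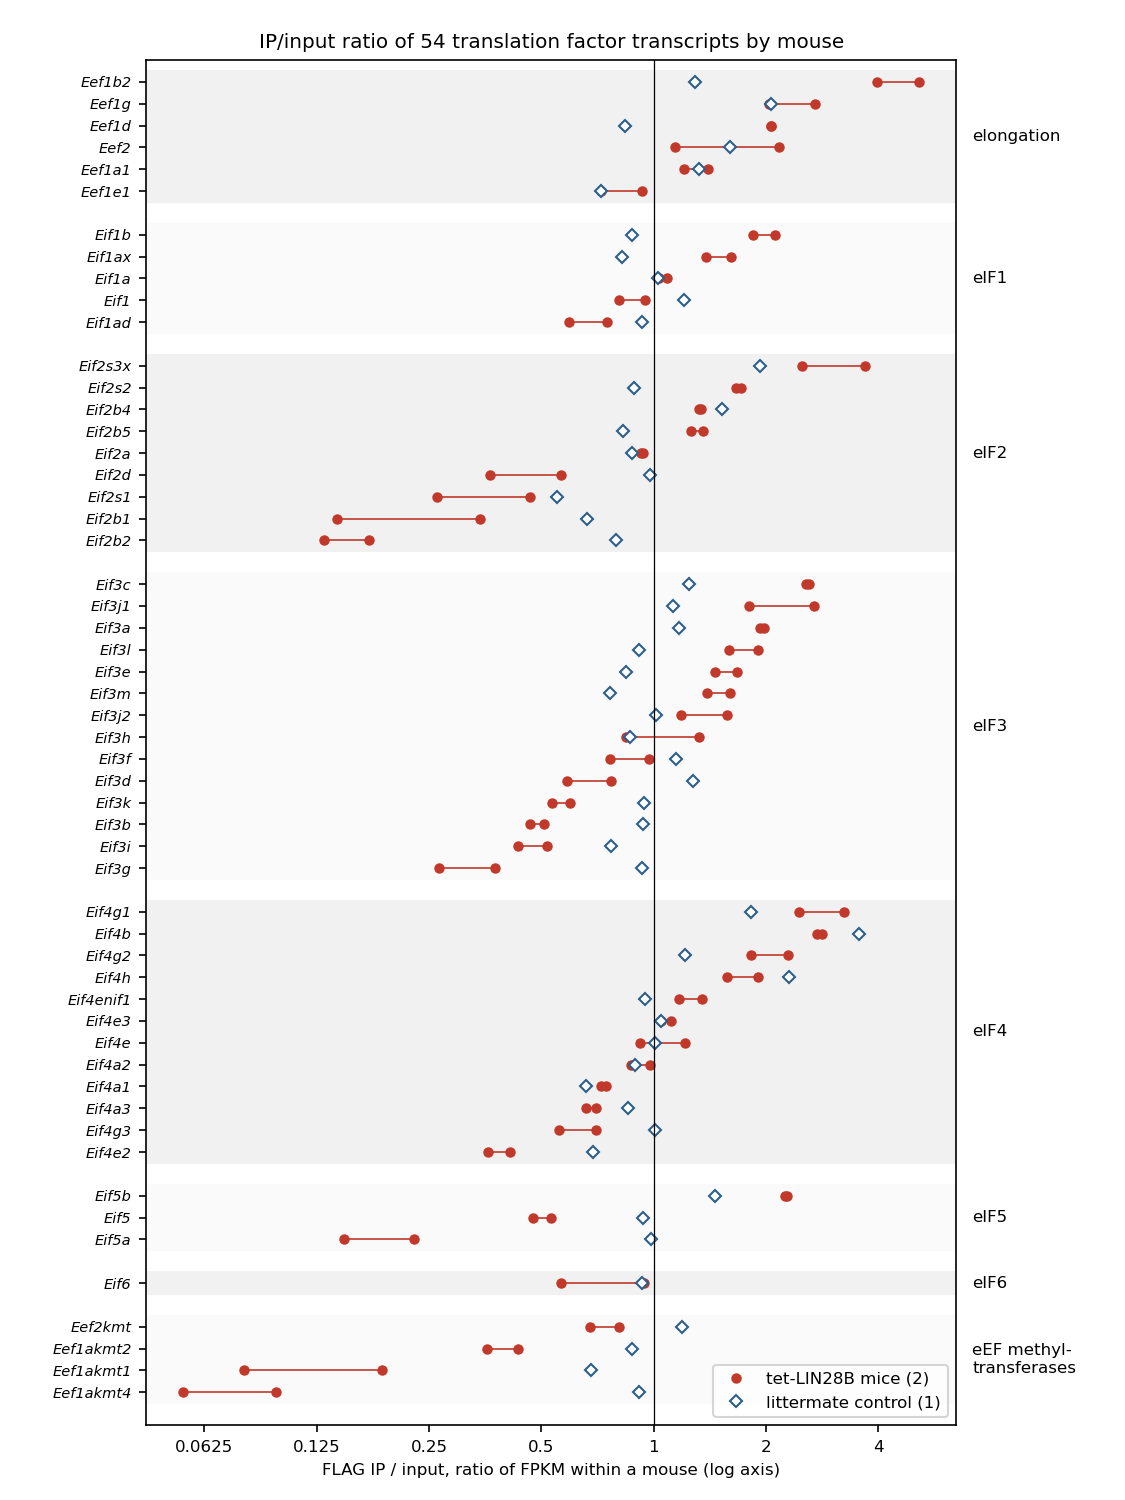
IP/input ratio of FPKM (log axis) of the 54 tested translation factor transcripts, by factor group, with a filled point for each of the 2 tet-LIN28B mice joined by a line and an open diamond for the control mouse. Eef1b2 lies at 5.15 and 3.96 with the control at 1.29, Eif5a at 0.148 and 0.228 with the control at 0.981, and Eif4b in the control at 3.55, to the right of both tet-LIN28B mice.

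Relative to the control, 3 members were higher (5.56%, against 4.73% of all genes tested) and 5 were lower (9.26%, against 17.8%) in the tet-LIN28B mice, and 46 passed in neither direction (limma, tet-LIN28B minus control, adjusted p under 0.05). The 3 higher ones were Eef1b2, Eef1d and Eif1b, and the 5 lower ones Eef1akmt4, Eif5a, Eif2b2, Eif3g and Eef1akmt2. With no filter all 8 calls were lost. With a filter of 1 FPKM, and likewise without pairing IP and input by mouse, 2 were kept, Eif2b2 and Eef1akmt4, and without the trend Eef1d, Eif1b and Eef1akmt2 were lost. Eif2b2 also failed when the inputs had to average 50 FPKM. The median difference over the members was 0.01 on the log2 scale, against -0.39 over all genes, so that a gene at 0 on this scale stood above the middle of the table. Of the 8 calls 3 were in the higher direction (37.5%). With each library rescaled to TPM 2 were higher and 7 lower (22.2% higher), and with each mouse's ratios centred on the median of all genes 12 were higher and 4 lower (75.0% higher). Over all genes those splits were 13.9% and 41.6% higher. The study's own filter, 50 FPKM in all 4 tet-LIN28B libraries, kept 27 of the members and 1460 genes and removed members that were low in the IP. Under it 11 members were higher and 3 lower, where 23.2% of its genes were higher and 22.2% lower.

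**Figure D2:**
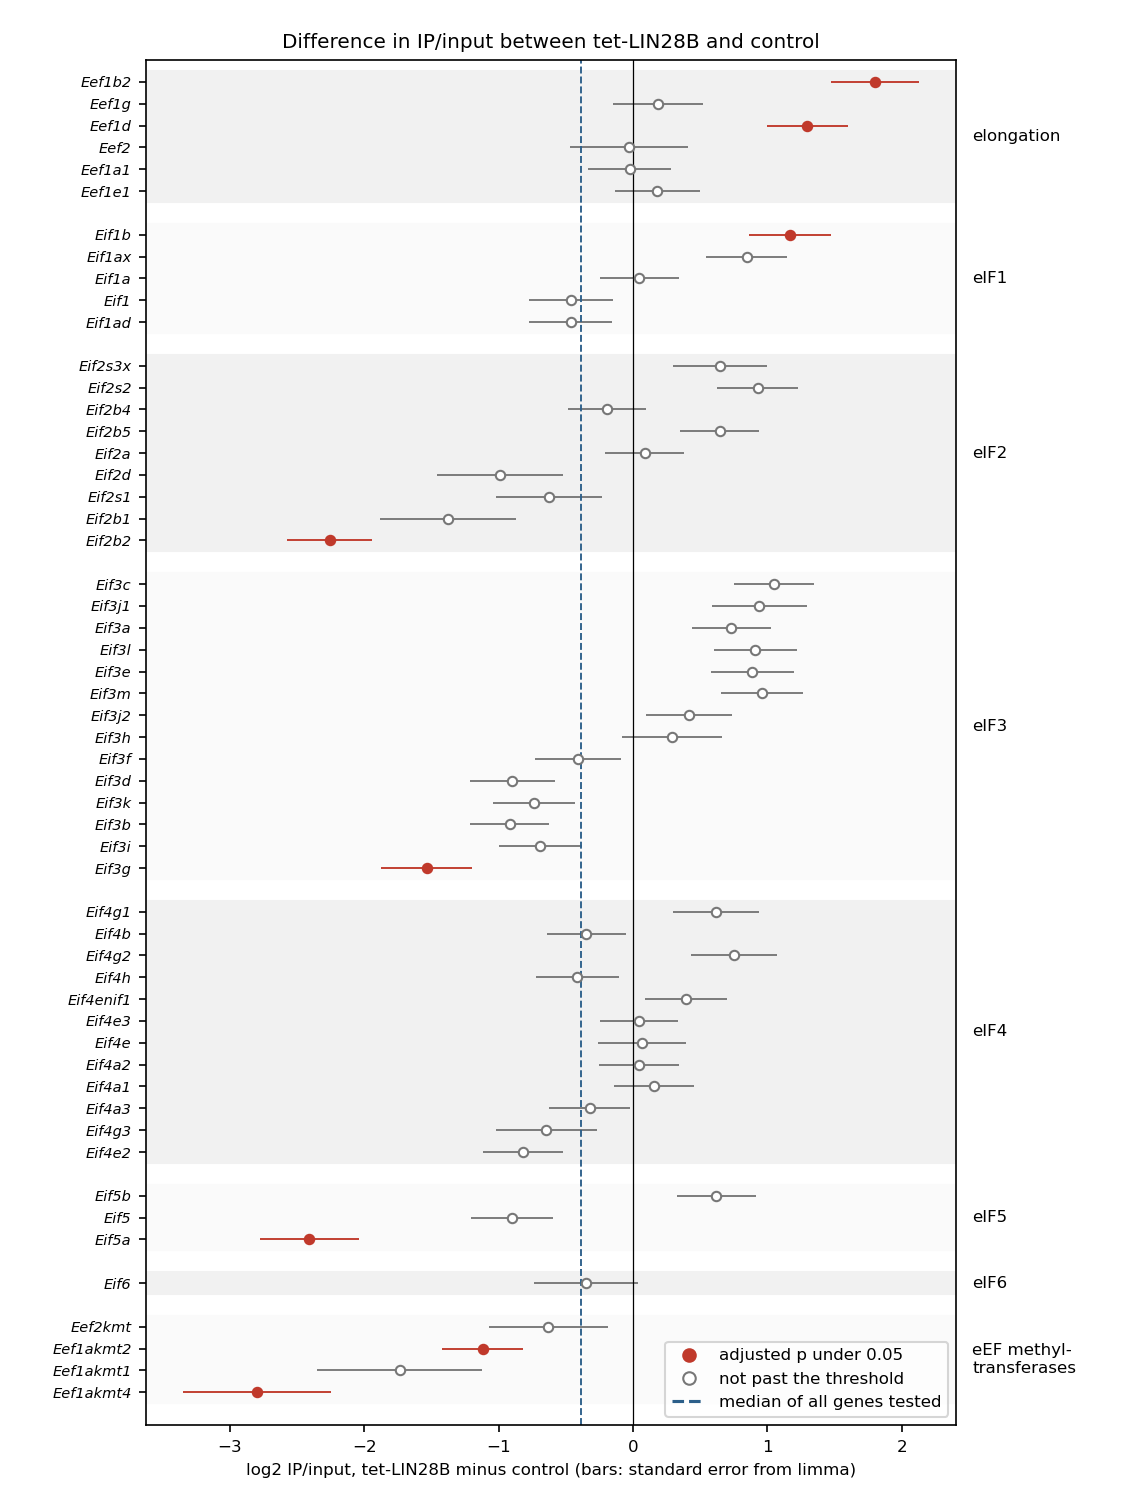
Difference in log2 IP/input, tet-LIN28B minus control, of the 54 tested transcripts by factor group, with the standard error from limma as bars. Filled red points passed an adjusted p of 0.05, and the dashed line marks the median of all genes tested (-0.39). The filled points are Eef1b2, Eef1d and Eif1b on the right and Eif2b2, Eif3g, Eif5a, Eef1akmt2 and Eef1akmt4 on the left.

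Among elongation factors, subunits of the eEF1B exchange complex were the highest. Eef1b2 encodes eEF1B alpha, a catalytic subunit that swaps GDP for GTP on eEF1A, and lies on chr1:63176825-63180486 (plus strand, GRCm38). It had 8782 and 6589 FPKM in the tet-LIN28B IPs and 2199 FPKM in the control IP, over 1704, 1664 and 1700 FPKM in the inputs of these mice. The IP/input ratio was 4.56 ± 0.843 in the tet-LIN28B mice (SD, n = 2) and 1.29 in the control. Both tet-LIN28B IPs thus stood well above the control IP over inputs that were nearly alike. Its log2 ratio was 2.17 ± 0.19 (SE, adjusted p = 0.000304), rank 37 of 6347 genes, and the difference to the control was 1.80 ± 0.33 (SE, adjusted p = 0.0161). That difference failed the threshold with the filter lowered to 1 FPKM (adjusted p = 0.0596), with no filter (0.191) and without pairing IP and input by mouse (0.0521).

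Eef1d, the second catalytic subunit of eEF1B, lies on chr15:75894205-75909556 (minus strand). It had 621 and 802 FPKM in the tet-LIN28B IPs and 309 FPKM in the control IP, over 300 and 389 FPKM in the tet-LIN28B inputs against 369 FPKM in the control input. Its ratios were 2.07 and 2.06 in the tet-LIN28B mice against 0.837 in the control, a difference of 1.30 ± 0.30 on the log2 scale (SE, adjusted p = 0.0299). Eef1g, the structural subunit that anchors the catalytic ones, behaved differently. It had 1021 and 1377 FPKM in the tet-LIN28B IPs and 973 FPKM in the control IP, over 503 and 508 FPKM in the tet-LIN28B inputs against 473 FPKM in the control input. The tet-LIN28B ratios of 2.03 and 2.71 were higher than the input (adjusted p = 0.00228), but the control had a ratio of 2.06, between them, and the difference was 0.19 ± 0.33 (SE, adjusted p = 0.703). All 3 eEF1B transcripts were therefore enriched in the tet-LIN28B IPs, and 2 of them beyond the control.

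Eef1a1, which encodes the eEF1A of most tissues and with Eif1 had the highest FPKM of the members in the inputs, had tet-LIN28B ratios of 1.20 and 1.40 against 1.32 in the control. Eef2, the translocase, had 358 and 697 FPKM in the tet-LIN28B IPs and 608 FPKM in the control IP, giving tet-LIN28B ratios of 1.14 and 2.16 against 1.60 in the control, so that both tet-LIN28B mice lay further apart than either did from the control. Eef1e1, which encodes an auxiliary protein of the tRNA synthetase complex, was at 0.928 and 0.722 in the tet-LIN28B mice against 0.721 in the control. None of these passed in either comparison on FPKM with the main filter. For IP against input, however, Eef1a1 passed after rescaling to TPM (adjusted p = 0.035) and with centred ratios (0.015), and Eef2 passed under both (0.0294 and 0.00777) and under the study's filter (0.000962). The difference of Eef1a1 (-0.02) turned positive with centred ratios (0.30), and so did the log2 IP/input of Eef1e1 (-0.28, against 0.06 when centred), neither of them called. As a group by symbol, which leaves out Eif5a, the 6 elongation factors had a median log2 IP/input of 0.85 (0.64 and 1.08 in the 2 tet-LIN28B mice, against 0.39 in the control). Of these 6, 3 were higher and 0 lower than the input on FPKM with the main filter (20.2% and 41.9% of all genes). Their median difference to the control was 0.18, with 2 higher and 0 lower (4.73% and 17.8% of all genes).

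The transcripts of eIF1 and eIF1A, small proteins that keep the scanning ribosome open until the start codon is found, were in part higher and in part close to their inputs: of the 5 members 2 were higher (Eif1b and Eif1ax) and 1 lower (Eif1ad), where 20.2% and 41.9% of all genes were. Eif1b, a paralog of Eif1, lies on chr9:120492232-120495330 (plus strand). It had 319.8 and 324 FPKM in the tet-LIN28B IPs and 171 FPKM in the control IP, over 152 and 176 FPKM in the tet-LIN28B inputs against 195 FPKM in the control input. The ratio was 1.98 ± 0.185 in the tet-LIN28B mice (SD, n = 2) and 0.875 in the control, with a difference of 1.17 ± 0.31 (SE, adjusted p = 0.0414) that was no longer called after rescaling to TPM (adjusted p = 0.0547). Its abundant paralog Eif1 had 2786 and 2656 FPKM in the tet-LIN28B IPs and 4144 FPKM in the control IP, with ratios of 0.948 and 0.808 against 1.21. The difference of Eif1, -0.46, was not called (adjusted p = 0.311), and the difference between the paralogs was not tested. Eif1ax (1.61 and 1.38 in the tet-LIN28B mice, 0.824 in the control) was higher than its input. Against the control it was not called on FPKM with the main filter (adjusted p = 0.0893) or after rescaling to TPM (0.165). It passed under the study's filter (0.0122) and with centred ratios (0.0335). Eif1ad, whose product resembles eIF1A, was lower than its input (0.593 and 0.748 in the tet-LIN28B mice, 0.928 in the control, adjusted p = 0.0319) and not called against the control. It was not called against its input after rescaling to TPM (0.0805) or with centred ratios (0.264).

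**Figure D3:**
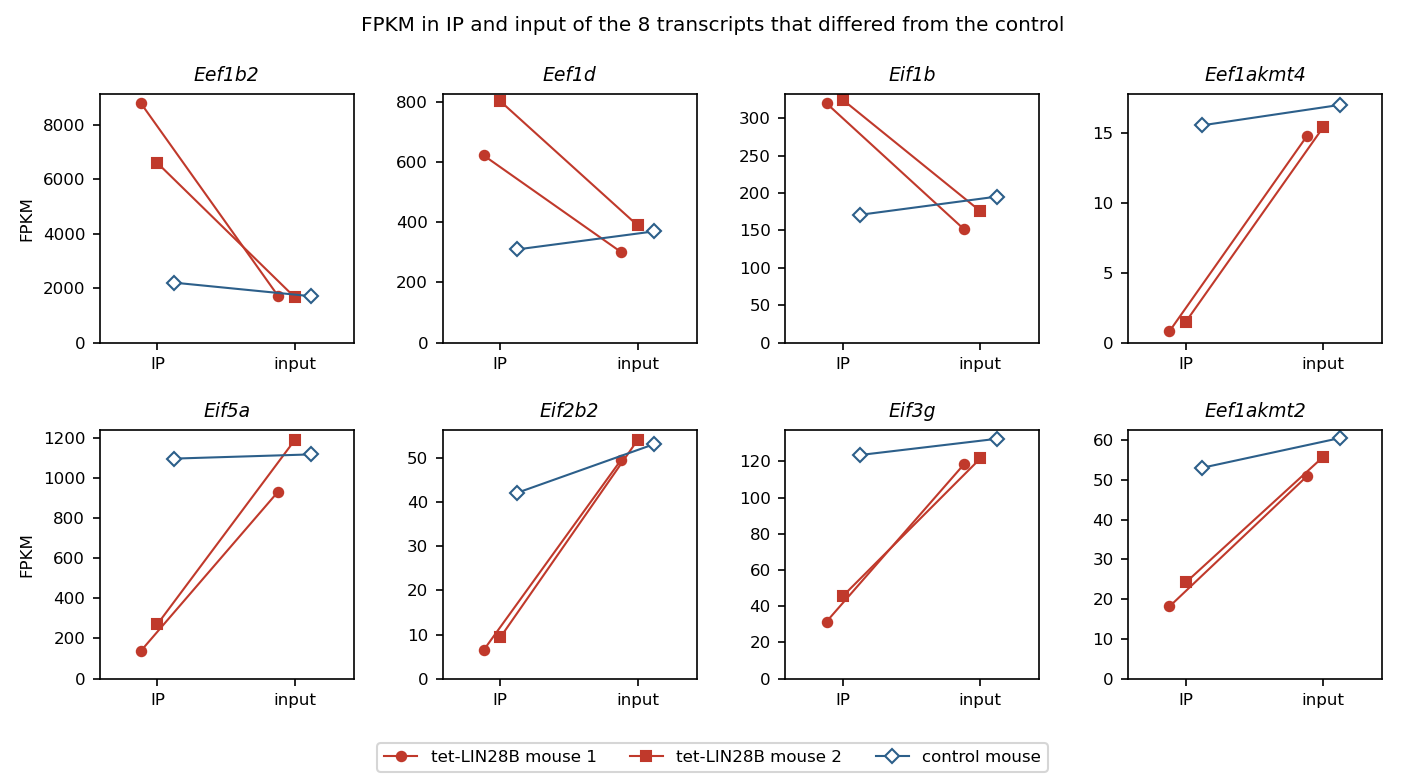
FPKM in the IP (left) and the input (right) of each mouse for the 8 translation factor transcripts that differed between tet-LIN28B and control, each panel with its own linear axis from 0. Red lines are the 2 tet-LIN28B mice and the blue line the control: for Eef1b2, Eef1d and Eif1b the red lines end higher in the IP, for the other 5 they end lower, and the inputs lie close together.

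Within eIF2, the heterotrimer that carries the initiator tRNA, the subunits parted. Eif2s3x, the X-linked gamma subunit that binds the tRNA and GTP, had 162 and 115 FPKM in the tet-LIN28B IPs and 75.6 FPKM in the control IP, over 44.0, 46.2 and 39.2 FPKM in the inputs of these mice. Its ratios were 3.69 and 2.50 in the tet-LIN28B mice against 1.93 in the control (log2 IP/input 1.58 ± 0.20 SE, adjusted p = 0.00111). Eif2s2, the beta subunit, had tet-LIN28B ratios of 1.66 and 1.72 against 0.884 in the control and was also higher than its input (adjusted p = 0.00985). Eif2s1, the alpha subunit whose phosphorylation shuts initiation down, was lower, with 11.5 and 25.2 FPKM in the tet-LIN28B IPs and 27.5 FPKM in the control IP over inputs of 44.0, 54.1 and 49.8 FPKM. Its ratios were 0.262 and 0.467 in the tet-LIN28B mice against 0.551 in the control (adjusted p = 0.00227). None of the 3 subunits passed against the control (adjusted p of 0.217 for gamma, 0.0701 for beta and 0.285 for alpha). The beta subunit did pass under the study's filter (adjusted p = 0.00729), with 50 FPKM asked of the input mean (0.0176) and with centred ratios (0.0298).

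The subunits of eIF2B, the exchange factor that recharges eIF2, spread as widely. Eif2b2, the beta subunit on chr12:85219481-85226628 (plus strand), had 6.50 and 9.33 FPKM in the tet-LIN28B IPs and 42.1 FPKM in the control IP, over 49.6, 54.1 and 53.2 FPKM in the inputs of these mice. Its ratio was 0.152 ± 0.0293 in the tet-LIN28B mice (SD, n = 2) and 0.792 in the control, a difference of -2.25 ± 0.32 (SE, adjusted p = 0.00991). Eif2b1, the alpha subunit, had tet-LIN28B ratios of 0.142 and 0.342 against 0.661 in the control, lower than its input (adjusted p = 0.00192) but not called against the control (adjusted p = 0.0949). Eif2b4, the delta subunit, had 1.34 and 1.32 in the tet-LIN28B mice against 1.52 in the control, and Eif2b5, the catalytic epsilon subunit, 1.26 and 1.35 in the tet-LIN28B mice against 0.830 in the control. Neither of these was called in either comparison on FPKM with the main filter. With centred ratios both were higher than the input (adjusted p of 0.00463 and 0.00681), and Eif2b5 was higher under the study's filter too (0.0366). Of Eif2d and Eif2a, both linked to initiation outside the usual eIF2 route, Eif2d was lower than its input (0.365 and 0.566 in the tet-LIN28B mice, 0.980 in the control) and Eif2a was close to its input in all 3 mice (0.938 and 0.927, and 0.876 in the control). Over the 9 members the median log2 IP/input was -0.10 in the tet-LIN28B mice, with a range from -2.58 to 1.58. Of the 9, 2 were higher and 4 lower than the input, where 20.2% and 41.9% of all genes were.

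The 14 eIF3 transcripts were the largest group, and 6 were higher and 5 lower in the tet-LIN28B IPs than in the inputs, where 20.2% and 41.9% of all genes were. Higher were Eif3c, Eif3j1, Eif3a, Eif3l, Eif3e and Eif3m. Eif3a, Eif3c, Eif3e, Eif3l and Eif3m encode subunits of the PCI/MPN core, to which Eif3k, Eif3f and Eif3h belong too, and of these Eif3k was lower (0.597 and 0.535 in the tet-LIN28B mice, 0.941 in the control) and Eif3f and Eif3h were not called. Eif3c had 375 and 417 FPKM in the tet-LIN28B IPs and 156 FPKM in the control IP, over 147, 160 and 125 FPKM in the inputs of these mice. Its tet-LIN28B ratios of 2.55 and 2.60 against 1.24 in the control gave a difference of 1.05 ± 0.30 that was not called (SE, adjusted p = 0.0508). It was called with 50 FPKM in all 4 tet-LIN28B libraries (adjusted p = 0.0023), with 50 FPKM asked of the input mean (0.00783), with a pseudocount of 5 (0.0452) and with centred ratios (0.0224). The other 5 higher subunits had tet-LIN28B mean ratios from 1.5 (Eif3m) to 2.25 (Eif3j1) and control ratios from 0.764 (Eif3m) to 1.17 (Eif3a). Against the control none of these 5 was called with the main filter, on FPKM or after rescaling to TPM. Under the study's filter limma called Eif3a, Eif3l, Eif3e and Eif3m higher (adjusted p of 0.0312, 0.00657, 0.0136 and 0.0053), where 23.2% of genes were. With centred ratios all 5 were called (0.0241 for Eif3l to 0.0424 for Eif3a), where 661 of all 6347 genes were.

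Lower were Eif3g, Eif3i, Eif3b, Eif3k and Eif3d. Of these, Eif3d was not called after rescaling to TPM (adjusted p = 0.0893) or with centred ratios (0.292), and Eif3k was not called with centred ratios (0.0731). Eif3b, Eif3g and Eif3i encode subunits outside that core. Eif3g, on chr9:20894349-20898623 (minus strand), had 31.5 and 45.7 FPKM in the tet-LIN28B IPs and 124 FPKM in the control IP, over 118, 122 and 133 FPKM in the inputs of these mice. Its ratio was 0.321 ± 0.0774 in the tet-LIN28B mice (SD, n = 2) and 0.932 in the control, and the difference was -1.53 ± 0.34 (SE, adjusted p = 0.026). Eif3i had tet-LIN28B ratios of 0.434 and 0.516 against 0.768 in the control, and Eif3b 0.467 and 0.508 in the tet-LIN28B mice against 0.939 in the control. Both were lower than their inputs (adjusted p of 0.00288 and 0.00294) without passing against the control on FPKM with the main filter (0.148 and 0.0679). Against the control Eif3i passed under the study's filter (0.0448), and Eif3b passed after rescaling to TPM (0.0471). Eif3j2 passed in neither comparison on FPKM with the main filter, though with centred ratios it was higher than its input (adjusted p = 0.00447). It shares 91.8% of its 50-base windows with Eif3j1, so that the counting could have split reads between them and their separate values are uncertain. The group's median log2 IP/input was 0.26 (-0.00 and 0.52 in the 2 tet-LIN28B mice, -0.09 in the control). Its median difference to the control was 0.35, with 0 higher and 1 lower on FPKM with the main filter (4.73% and 17.8% of all genes).

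Among the eIF4 transcripts, the highest ratios were found in the control IP too. Eif4g1, the scaffold between the cap-binding protein and eIF3, had 58.7 and 81.8 FPKM in the tet-LIN28B IPs and 42.2 FPKM in the control IP, over 23.9, 25.3 and 23.2 FPKM in the inputs of these mice, which gave tet-LIN28B ratios of 2.46 and 3.24 against 1.82 in the control. Eif4b, which stimulates the helicase eIF4A, had 132 and 144 FPKM in the tet-LIN28B IPs and 171 FPKM in the control IP, over 48.5, 50.8 and 48.3 FPKM in the inputs. Its ratios were 2.73 and 2.83 in the tet-LIN28B mice against 3.55 in the control, so the IP without the tagged protein held the most. Eif4h, a related helper of eIF4A, followed the same order with 1.58 and 1.90 in the tet-LIN28B mice against 2.31 in the control. All 3 were higher in the IP than in the input (adjusted p of 0.00106, 0.000806 and 0.00976), and none passed against the control, with differences of 0.62 ± 0.32, -0.35 ± 0.29 and -0.41 ± 0.31 (SE).

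Eif4g2, an eIF4G relative that does not bind the cap protein, had tet-LIN28B ratios of 2.29 and 1.82 against 1.21 in the control and was higher than its input. Against the control it was called under the study's filter (adjusted p = 0.0413) but not with the main filter (0.134). Eif4g3 had 0.557 and 0.699 in the tet-LIN28B mice against 1.01 in the control and was lower than its input by little (0.0429). That call was lost after rescaling to TPM (0.0982), with centred ratios (0.236), with a filter of 1 FPKM (0.0502) and with a pseudocount of 0.1 (0.057). The helicase transcripts Eif4a1 (0.747 and 0.723 in the tet-LIN28B mice, 0.659 in the control) and Eif4a2 (0.977 and 0.867, and 0.891 in the control) passed in neither comparison on FPKM with the main filter. Under the study's filter Eif4a1 was lower than its input (adjusted p = 0.0155). Eif4a3, a core protein of the exon junction complex, was lower than its input (0.702 and 0.660 in the tet-LIN28B mice, 0.852 in the control). It was not called after rescaling to TPM (adjusted p = 0.0681) or with centred ratios (0.38). The cap-binding proteins differed among themselves: Eif4e and Eif4e3 lay near their inputs (tet-LIN28B mean ratios of 1.07 and 1.08, control ratios of 1.01 and 1.04), while Eif4e2, a cap-binding repressor, was lower with 0.412 and 0.359 in the tet-LIN28B mice against 0.688 in the control (adjusted p = 0.00111). Over the 12 members, 4 were higher and 3 lower than the input (20.2% and 41.9% of all genes), and the median log2 IP/input was 0.09. Their median difference to the control was 0.05, with 0 called on FPKM with the main filter, where 4.73% of all genes were higher and 17.8% lower.

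The 3 eIF5 proteins share a name but not a function, and their transcripts parted as well. Eif5a encodes the hypusine-bearing factor that helps the ribosome over difficult peptide bonds, an elongation role despite the name, and lies on chr11:69916714-69921958 (minus strand). It had 138 and 271 FPKM in the tet-LIN28B IPs and 1097 FPKM in the control IP, over 933, 1189 and 1118 FPKM in the inputs of these mice. The ratio was 0.188 ± 0.0565 in the tet-LIN28B mice (SD, n = 2), against 0.981 in the control, where IP and input were nearly equal. Its difference to the control was -2.41 ± 0.37 (SE, adjusted p = 0.0115), and it failed the threshold under a filter of 1 FPKM, under no filter and without the pairing by mouse. Eif5, the GTPase activator of eIF2, was lower than its input with 0.474 and 0.531 in the tet-LIN28B mice against 0.938 in the control (adjusted p = 0.00372), and its difference to the control was not called on FPKM (adjusted p = 0.0794) but was after rescaling to TPM (0.0433), under the study's filter (0.0176) and with 50 FPKM asked of the input mean (0.0317). Eif5b, the GTPase of subunit joining, was higher with 2.27 and 2.25 in the tet-LIN28B mice against 1.46 in the control (adjusted p = 0.00184 for IP against input and 0.164 against the control). With centred ratios Eif5b passed against the control (0.0445). Eif6, which keeps large subunits apart from small ones, had 0.564 and 0.940 in the tet-LIN28B mice against 0.931 in the control.

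The methyltransferases that modify the elongation factors lay low in the tet-LIN28B IPs. Eef1akmt4, an eEF1A lysine methyltransferase on chr16:20611593-20619011 (plus strand), had 0.81 and 1.5 FPKM in the tet-LIN28B IPs and 15.6 FPKM in the control IP, over 14.8, 15.4 and 17.0 FPKM in the inputs of these mice. Its ratio of 0.076 ± 0.030 in the tet-LIN28B mice (SD, n = 2) was the lowest of the 54 members, against 0.914 in the control, and the difference was -2.80 ± 0.55 on the scale with a pseudocount of 1 (SE, adjusted p = 0.0193). The gene overlaps the model Gm49333, with which it shares most of the 42.9% of its 50-base windows found elsewhere, so its values are uncertain. Eef1akmt2 had 18.1 and 24.2 FPKM in the tet-LIN28B IPs and 53.0 FPKM in the control IP, over 50.9, 55.8 and 60.5 FPKM in the inputs. Its difference of -1.12 ± 0.30 passed by little (SE, adjusted p = 0.0454) and was lost under 7 of 9 alternatives. Eef1akmt1 was lower than its input (0.0799 and 0.187 in the tet-LIN28B mice, 0.678 in the control) without passing against the control, and Eef2kmt passed in neither comparison. With 3 of 4 members lower in the IP (against 41.9% of all genes), their median log2 IP/input was -1.78 (against -0.35). Against the control 2 of 4 were lower (against 17.8% of all genes), and their median difference was -1.43 (against -0.39). Eef2kmt, Eef1akmt1 and Eef1akmt4 had mean inputs of 10.7, 12.6 and 15.7 FPKM, close to the limit of 10 FPKM for testing.

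Set side by side, the median log2 IP/input in the tet-LIN28B mice was 0.85 for the elongation factors, 0.26 for eIF3, 0.09 for eIF4, 0.08 for eIF1, -0.10 for eIF2 and -0.99 for eIF5, and the median differences to the control were 0.18, 0.35, 0.05, 0.05, -0.19 and -0.90. Single members spread far more than these medians: log2 IP/input ranged from -0.28 to 2.17 for the elongation factors, -2.58 to 1.58 for eIF2, -1.63 to 1.36 for eIF3, -1.35 to 1.46 for eIF4 and -2.44 to 1.14 for eIF5. The groups overlapped, and the difference between them was not tested because members of a group are not replicates. They follow gene symbols rather than function: Eif5a, with its elongation role, counts under eIF5, and Eef1e1 under the elongation factors.

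Length and base composition went with the ratio among the members. By the transcript with the longest coding sequence of each gene (GENCODE M21), the 18 transcripts higher in the IP had a median length of 3113 bases and a median GC content of 45.3%, and the 18 lower ones had 1752 bases and 53.5%. Across the 54 members, log2 IP/input in the tet-LIN28B mice correlated with log length at r = 0.46 and with GC content at r = -0.25. In the control mouse these were 0.33 and 0.17, with the GC value of the opposite sign. Over 5652 protein-coding genes tested the same values were 0.36 and -0.25 in the tet-LIN28B mice, and 0.43 and 0.09 in the control. These correlations run across genes of the same libraries and describe them only.

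**Figure D4:**
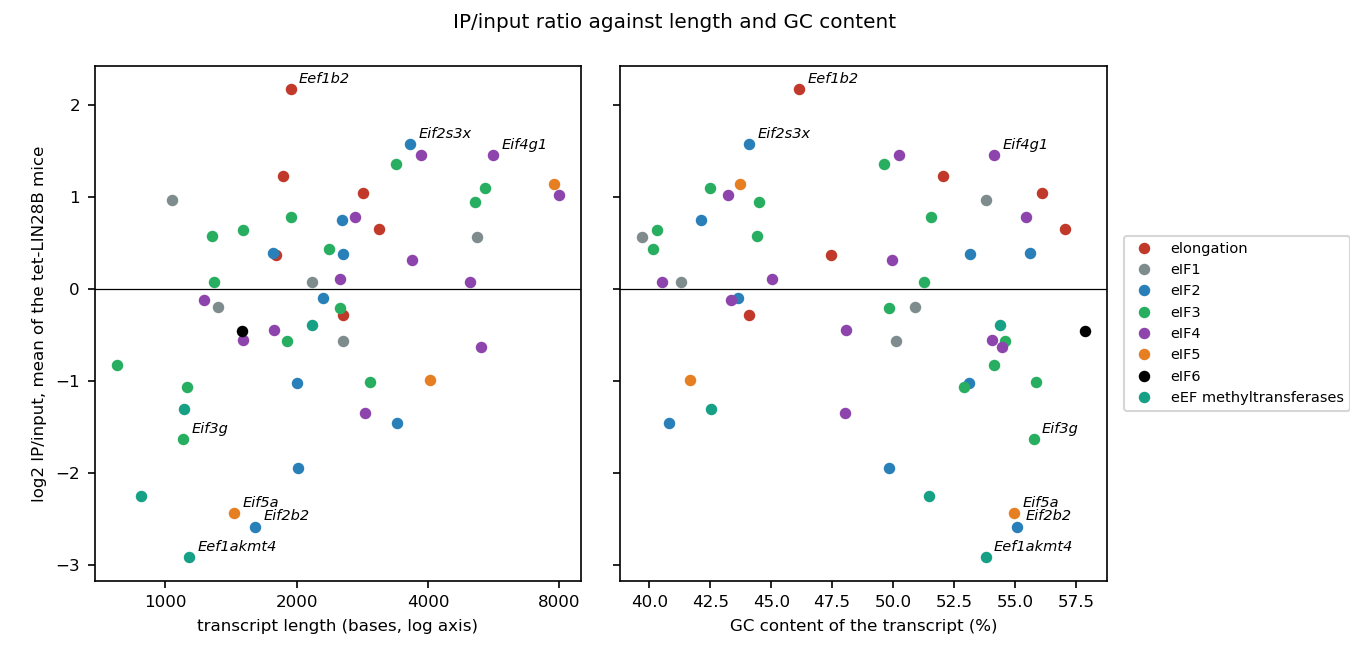
Mean log2 IP/input of the tet-LIN28B mice against transcript length (left, log axis, in bases) and GC content (right, in percent) for the 54 tested transcripts, coloured by factor group. Eif2s3x and Eif4g1 are long and high, Eif3g and Eef1akmt4 short and low, and Eef1b2 lies above transcripts of similar length.

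By the median, GGAG was sparser, not denser, in the members that were higher in the IP, though the ranges overlapped. The median density was 5.89 copies per kilobase in the 18 transcripts higher than their input and 8.73 in the 18 lower ones, and across the members it correlated with log2 IP/input in the tet-LIN28B mice at r = -0.28 (0.05 over the 5652 genes). Among the 6 transcripts whose stretches are shown above, the densities were 7.74 for Eef1b2, 12.0 for Eef1d and 4.83 for Eif1b, which were higher than in the control, and 10.4 for Eif5a, 11.8 for Eif2b2 and 17.3 for Eif3g, which were lower. The methyltransferase transcripts Eef1akmt2 and Eef1akmt4, also lower than in the control, had 1.81 and 7.94. The lower transcripts thus ran from 1.81 to 17.3, a range that held all 3 higher ones. The 18 members higher than their input also had less GC than the 18 lower ones (medians of 45.3% and 53.5%), and GGAG density was not tested apart from GC content. A count of letters in an annotated transcript is not a binding site. The density of Eef1d is that of its model with the longest coding sequence (1980 of 2842 bases), and which model the cells held was not tested.

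Many members have processed pseudogenes. Of the 54 tested, 18 shared no 50-base window with a transcript of another gene on either strand, and 15 shared at least 20% of theirs, among them Eef1g (64.3%), Eef1a1 (60.6%) and Eif4a1 (65.3%). Summing FPKM times length over a member and the genes that share a window with it left the log2 IP/input of the tet-LIN28B mice at 2.12 for Eef1b2, 1.22 for Eef1g, 0.39 for Eef1a1 and -2.44 for Eif5a. These sums carry no pseudocount, and against the member alone on that scale 8 of the 54 moved by more than 0.1. Lower after summing were Eif3m (0.22 against 0.58 alone), Eif3j1 (0.83 against 1.14), Eif2a (-0.32 against -0.10), Eif1ad (-1.85 against -0.59) and Eef1akmt4 (-4.45 against -3.78). Higher were Eif3j2 (0.85 against 0.45), Eif4g2 (1.20 against 1.03) and Eef2kmt (0.03 against -0.44). Of the summed signal, the member's own share was 75.8% for Eif3m, 74.9% for Eif4g2, 49.9% for Eif3j1, 42.5% for Eef1akmt4 and 41.5% for Eif3j2. It was 11.4% for Eif2a, 7.23% for Eif1ad and 0.0556% for Eef2kmt, to which 236 genes were added. For Eif2a, Eif1ad and Eef2kmt the sum is thus mostly that of other genes and says little on the member. Their main sharing genes were Serp1, Banf1 and Alg1.

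For comparison, a list of 35 other genes of translation held 27 that were tested, of which 8 were higher and 9 lower in the tet-LIN28B IPs than in the inputs (29.6% and 33.3%, against 20.2% and 41.9% of all genes). Set against the control IP, limma called 2 up and 4 down (7.41% and 14.8%, against 4.73% and 17.8%). Higher than in the control were Pdcd4, an inhibitor of eIF4A (difference of 1.18, adjusted p = 0.0355), and Denr, a factor of reinitiation (1.17, adjusted p = 0.0396). Lower were the eIF4E-binding proteins Eif4ebp1 (-2.26, adjusted p = 0.0161) and Eif4ebp2 (-2.14, adjusted p = 0.0129), the eIF4E kinase Mknk2 (-1.89, adjusted p = 0.0218) and the mitochondrial elongation factor Tufm (-1.47, adjusted p = 0.0426). Eif4ebp2 had 7.80 and 12.2 FPKM in the tet-LIN28B IPs and 57.5 FPKM in the control IP, over 14.2, 16.9 and 19.3 FPKM in the inputs, so that the control IP lay above its input and both tet-LIN28B IPs below theirs. The cytoplasmic poly(A)-binding protein Pabpc1 was higher than its input in all 3 mice (log2 IP/input of 0.95 and 1.14 in the tet-LIN28B mice against 0.81 in the control).

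Both tests rest on 2 tet-LIN28B mice and 1 control, with 1 residual degree of freedom per gene, and limma took the spread mainly from all genes together, so the p-values say little on how well both mice agreed for a gene. The difference takes the spread of the single control to be that of the tet-LIN28B mice.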

How the data were processed

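Deposited FPKM of the IP and input of 2 tet-LIN28B mice and 1 littermate control were used. Per the labels, the authors used STAR 2.7.1 with mm10 and obtained FPKM from RSEM 1.28, starting from poly-A RNA amplified with SMART-Seq v4, whereas the text of the study describes the inputs as total RNA. The sources used here do not give the annotation release, and the protocol of the library kit keeps no strand, so overlapping genes cannot be told apart. Counts were not used here, so no interval for counting error is given. Identical values were found in 0 of 15 library pairs.

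limma 3.58.1 (R 4.3.3, genotype as factor, eBayes with trend) was run on log2((IP + 1)/(input + 1)) per mouse over the 6347 genes whose inputs averaged 10 FPKM or more. The tet-LIN28B mean was tested against 0 and against the control (two-sided, Benjamini-Hochberg over all genes tested, threshold 0.05), and inputs on log2(FPKM + 1). The filter of the methods, which asks for 50 FPKM in the IPs too, was an alternative because it removes members that are low in the IP. The mouse pairs IP and input because both come from the same lysate. The differences between both tet-LIN28B mice in IP and in input correlated at 0.120 across genes. Scripts were tested on simulated data. Ratios in the text are without the pseudocount. Transcripts, positions and 50-base windows come from GENCODE M21 (GRCm38).

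The members, groups and lists were chosen with earlier results of these data known. Named genes followed a rule: Eef1b2 and Eif5a, the 2 highest and 2 lowest members of the elongation, eIF2, eIF3, eIF4 and eIF5 groups by mean ratio, members called against the control, and paralogs of these by symbol. Other members and genes of translation given with values were chosen after their values were seen. Alternatives changed the filter, pseudocount, scaling, trend, pairing, threshold and gene models and left out each tet-LIN28B mouse.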

Additional observations from a re-analysis of the deposited data

Results flagged for a closer look

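The effect of the IP differed between the genotypes, by the limma test of the difference itself, for 8 of the 54 tested translation factor transcripts (14.8%, against 22.5% of all genes tested). On the log2 IP/input scale, tet-LIN28B minus control, the difference was 1.80 for Eef1b2, 1.30 for Eef1d and 1.17 for Eif1b. It was -2.80 for Eef1akmt4, -2.41 for Eif5a, -2.25 for Eif2b2, -1.53 for Eif3g and -1.12 for Eef1akmt2. Adjusted p ran from 0.00991 (Eif2b2) to 0.0454 (Eef1akmt2), and both tet-LIN28B mice lay on the same side of the control for all 8. The calls came from these same ratios, so the side adds no support to them. Both mice lay above the control for 42.6% of the members and below it for 44.4%, against 28% and 59.8% of all genes.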

How the results depend on the processing

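Every value below is given for the tet-LIN28B mice, first for IP against input and then for tet-LIN28B minus control. With 50 FPKM in the 4 tet-LIN28B libraries, 6 members were lower than the input (512 of all 1460 genes), and the medians were 0.57 (eIF2), -0.020 (eIF4) and -1.71 (eIF5). Against the control 11 were higher and 3 lower (339 and 324 of all 1460 genes), with medians of 0.79 (eIF2), 0.73 (eIF3) and -1.65 (eIF5). With 50 FPKM asked of the input mean, 11 were lower than the input (1112 of all 2244 genes), with medians of 0.38 (eIF2), -0.12 (eIF4) and -1.71 (eIF5). In that setting 8 were higher and 3 lower than the control (293 and 686 of all 2244 genes), with medians of 0.64 (eIF2) and -1.65 (eIF5). With at least 1 FPKM the eIF2 medians were 0.12 and -0.053, and against the control limma called 0 members higher (10 at an unadjusted p under 0.05) and 2 lower. Of all 12576 genes in that setting, 48 were called higher and 318 lower. With no filter 0 members were called in either comparison and either direction (limma, 0 of all 26505 genes as well, while at an unadjusted p under 0.05 21 were higher and 13 lower than the input and 11 higher and 9 lower than the control), and the medians were 0.12 (eIF2) and -0.21 (eIF5) for IP against input and -0.053 (eIF2) and -0.40 (eIF5) against the control. A pseudocount of 5 gave -0.18 for the eIF2 difference. TPM gave 0.0050 (eIF2) and 0.19 (eIF4) for IP against input, and -0.36 (eIF2), -0.12 (eIF4) and -1.07 (eIF5) against the control. Centred ratios gave 1.19 (elongation), 0.25 (eIF2), 0.44 (eIF4) and -0.65 (eIF5) for IP against input, and 0.50, 0.13, 0.37 and -0.58 for the same groups against the control, with 12 members higher (661 of all 6347 genes). Centring also turned the IP/input of Eef1e1 (0.060) and the difference of Eef1a1 (0.30). Without the trend 1 member was higher than in the control (165 of all 6347 genes). Without the replicate block, which pairs IP and input by mouse, 0 were higher (10 at an unadjusted p under 0.05) and 2 lower than the control, and 17 were higher and 16 lower than the input. Of all 6347 genes, 45 were then higher and 272 lower than the control, and 1137 higher and 2450 lower than the input. With the limit for the mean ratio lowered from 2 to 1.5, 17 members lay above it. For that count and for the counts at an unadjusted p no share over all genes is given here, so they are not read as results about the members. The cause of these shifts was not tested, beyond the change in the genes or scale that each setting makes.

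Leaving out either tet-LIN28B mouse gave values only, since no residual degrees of freedom remain. The medians for IP against input ranged from 0.64 to 1.08 (elongation), -0.11 to -0.09 (eIF2), -0.00 to 0.52 (eIF3), 0.06 to 0.14 (eIF4) and -1.07 to -0.91 (eIF5). Those against the control ranged from 0.17 to 0.41, -0.20 to -0.19, 0.09 to 0.61, -0.023 to -0.017 and -0.98 to -0.82 for the same groups. Between 9 and 11 members had a ratio above 2, and between 9 and 13 below 0.5. By the mean of both mice 9.97% and 31.1% of all genes did, and shares for single mice are not given here. Of the 8 calls against the control, Eef1akmt4 held under 7 of 8 alternatives with a test, Eif2b2 under 7 of 9, Eef1b2 and Eif5a under 7 of 10, Eif3g under 6 of 9, Eef1d under 6 of 10, Eif1b under 5 of 10 and Eef1akmt2 under 2 of 9. Summing over genes that share a 50-base window, which also drops the pseudocount, gave -4.45 for the IP/input of Eef1akmt4, against -3.78 for the gene alone without a pseudocount and -2.92 with it. The depth is unknown, so no limit from counting can be given.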
